A study of Mus musculus with 2 samples.

Results

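Stem cell regulators and stem-enriched genes were examined in KLS cells sorted from wild type and from TIF1γ Δ/Δ mice, in which the gene for the transcriptional regulator TIF1γ (Trim33) had been conditionally inactivated. The set consisted of 34 genes chosen by name, all of which had at least 1 probe set of their own among the 18193 genes represented. It was covered by 79 probe sets, each a group of short probes that reads 1 stretch of a transcript, and 56 of these were measured on both arrays. KLS cells are bone marrow cells without lineage markers that carry c-kit and Sca, a sorted fraction that holds stem cells together with early progenitors. Each genotype was represented by 1 Affymetrix array, made from 25 ng of total RNA by 2 rounds of labelling, so no difference below has a replicate check, an error between mice or a p-value. Mouse age and strain, the number of animals per sample, and the Cre driver and timing of the inactivation are not stated in the labels used here.

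Haematopoietic stem cells renew themselves and give rise to all blood lineages. Their identity depends on a group of DNA-binding regulators, among them Hlf, Mecom, Meis1, Prdm16 and Erg, and on contact with the marrow niche through receptors such as Tek, whose ligand angiopoietin 1 is made from Angpt1. Other genes serve as markers of the most immature cells because their transcripts are enriched there, for example Fgd5, Ctnnal1, Pdzk1ip1 and Robo4.

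Values are MAS5 intensities on a linear scale, as deposited. A gene is described by its probe set of highest mean signal, and the difference is a log2 ratio, positive when the TIF1γ Δ/Δ array was brighter, from which the median over measured probe sets (-0.024) had been subtracted. A probe set was called measured at or above an array's floor, its median signal, which was 14.4 for wild type and 11.7 for TIF1γ Δ/Δ. Signals of different probe sets are not comparable, so levels are set side by side only within a gene. Sums over a marker list set the same list side by side on the 2 arrays, and its brightest probe sets weigh most in them. As a yardstick, measured probe sets of the same gene scattered with an SD of 0.452 (log2) over 4534 genes, and with 0.397 over the 15 stem cell genes that had 2 or more. This is disagreement between probe sets, not between mice.

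Trim33 gave 379 in wild type and 172 in TIF1γ Δ/Δ cells (log2 -1.12), and its other measured probe set gave 61.0 and 34.5. The labels do not say whether these probe sets lie in the deleted part, so they check the labels only in part. Kit, which encodes c-kit, gave 384 and 495. It was listed with surface markers of KLS subsets, which the labels do not name as part of the sort. All 6 listed genes with a value were measured on both arrays. Of these, 5 were above 0, compared with 53.1% of all measured genes. Cd34 stood at 1398 and 2326, Cd48 at 933 and 1077, and Flt3 at 464 and 534. Procr was on the other side, at 486 and 316 (log2 -0.60). Ly6a, which encodes Sca-1, had no probe set of its own here. Over all 11439 genes with a value, 6.16% were at least 2-fold lower in the TIF1γ Δ/Δ sample. Of 17 neutrophil and macrophage markers with a value, 16 were lower by that much. Their summed signal, over all 18 represented, was 45196 in wild type and 4764 in TIF1γ Δ/Δ cells, and 17 and 9 of them reached the floor. Of 9 erythroid markers with a value, 8 were at least 2-fold lower, and the sums over 10 were 4462 and 1524. These markers move together with every difference described below, and their part in it was not tested. Signal in a sorted population also cannot tell fewer cells of a type from less RNA per cell.

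All 34 stem cell genes were measured on both arrays, and 15 of them differed by less than the probe set scatter of 0.452. Only Tek, the angiopoietin receptor, was at least 2-fold higher on the TIF1γ Δ/Δ array, and only Plscr2, a phospholipid scramblase, was lower by that much. That is 2.94% of the set in either direction, against 2.62% higher and 4.65% lower of the 10365 genes measured on both arrays. The median difference of the set was -0.084, and that of all measured genes was 0.044. At 1.5-fold, 3 of 34 (8.82%) were higher and 10 of 34 (29.4%) lower, where the shares of all measured genes were 14.3% and 13.2%. The 3 higher genes were Tek, Fhl1 and Hmga2, and the 10 lower genes were Plscr2, Fgd5, Neo1, Sult1a1, Mt1, Mt2, Jam2, Aldh1a1, Ifitm1 and Nupr1.

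**Figure D1:**
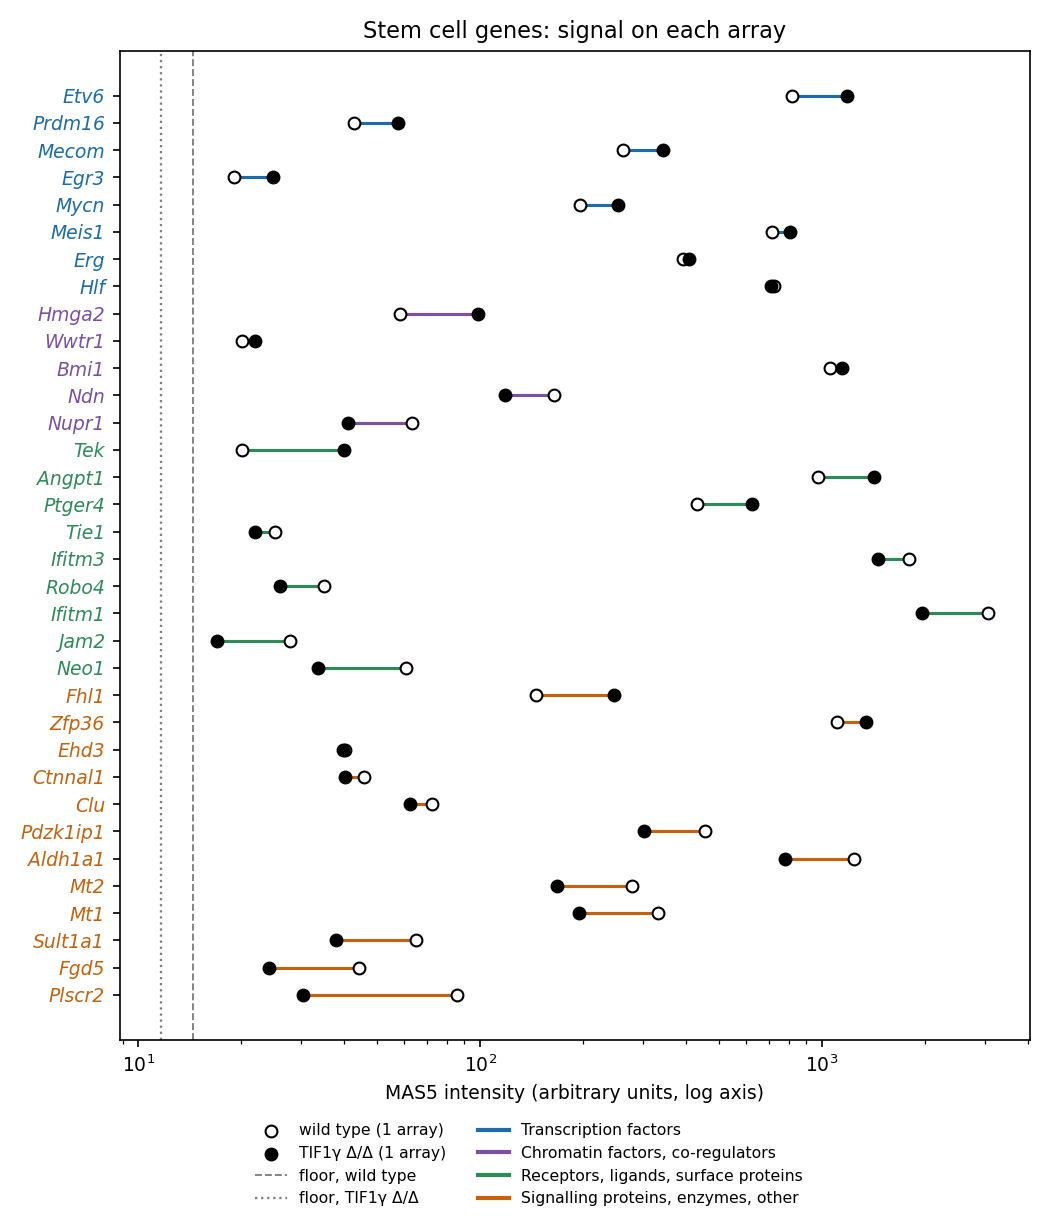
MAS5 intensity (log axis) of each of the 34 stem cell genes on the wild type array (open circles) and the TIF1γ Δ/Δ array (filled circles), 1 array each, ordered by class and difference. Bars join the 2 arrays of a gene, and vertical lines mark the floors of 14.4 (wild type) and 11.7 (TIF1γ Δ/Δ). The longest bar is that of Plscr2, from 85.6 down to 30.4, and Tek runs from 20.1 up to 39.99.

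The 8 DNA-binding transcription factors lay on or slightly above equality. Their differences ran from -0.0054 to 0.55 with a median of 0.40, and 7 of 8 were above 0, compared with 53.1% of all measured genes. None reached 1.5-fold. The ETS-family repressor Etv6 gave 819 in wild type and 1183 in TIF1γ Δ/Δ cells (log2 0.55), and its other measured probe set differed by 0.86 in the same direction. Mecom, a zinc finger regulator that stem cells need for self-renewal, gave 261 and 343 (log2 0.42). Prdm16, a related PR-domain factor, gave 42.7 and 57.5 (log2 0.45). For both genes only 1 probe set was measured on both arrays. Mycn, which acts with Myc in stem cell survival, gave 196 and 253 (log2 0.39). Its 2 remaining probe sets lay under the floor on at least 1 array and pointed in opposite directions, from 14.3 to 1.34 and from 3.21 to 14.6.

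The remaining 4 factors were closer to equality or disagreed between probe sets. Hlf, a PAR bZIP factor that marks immature stem cells, gave 725 and 710 (log2 -0.0054), and its other probe set 625 and 517 (log2 -0.25). Erg, an ETS factor of stem and endothelial cells, gave 392 and 409 (log2 0.087), a difference that turned below 0 after quantile scaling (-0.064) and after loess (-0.035). Meis1, the homeobox partner of Hox proteins, depended on the probe set. The probe set with the highest signal gave 715 and 806 (log2 0.20), while the second gave 183 and 63.5 (log2 -1.50) and the third gave 54.7 and 27.6 (log2 -0.96). No other stem cell gene had probe sets this far apart, and without Meis1 the scatter of probe sets in the set was 0.313. Egr3, a growth-response zinc finger factor, gave 19.0 and 24.8 (log2 0.41), close to the floor. Its second probe set went the other way, from 20.7 to 9.67, the latter under the floor.

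Chromatin factors and co-regulators went both ways. Bmi1, a Polycomb subunit that stem cells need to renew, gave 1056 and 1143 (log2 0.14), and a second probe set differed by 0.17. Hmga2, an architectural chromatin protein best known from fetal stem cells, gave 58.4 and 98.8 (log2 0.78). All 3 of its measured probe sets were higher in TIF1γ Δ/Δ cells, from 0.35 to 0.78. Wwtr1 (TAZ), a Hippo pathway co-activator, gave 20.1 and 21.9 (log2 0.15), near the floor. On the lower side stood Ndn and Nupr1. Ndn (necdin), an imprinted growth suppressor, gave 165 and 118 (log2 -0.46), and all 5 measured probe sets were lower in TIF1γ Δ/Δ cells, from -1.12 to -0.34. Nupr1, a small stress-induced transcriptional co-regulator, gave 63.1 and 41.2 (log2 -0.59), with a second probe set at -0.89. The median of the 5 genes was 0.14.

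**Figure D2:**
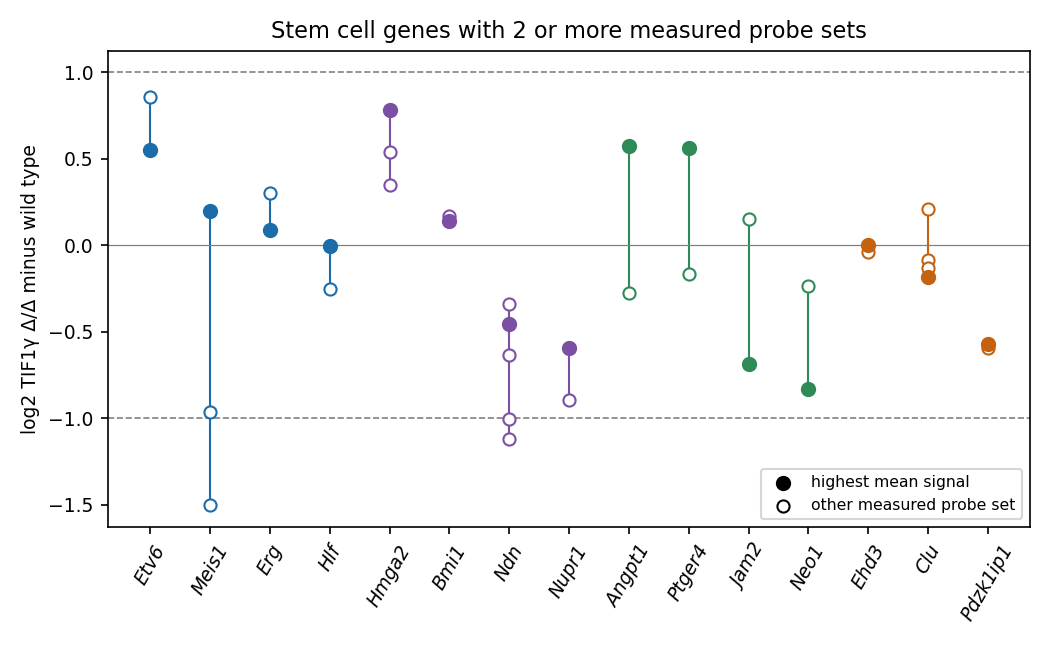
Difference (log2 TIF1γ Δ/Δ minus wild type) of every probe set measured on both arrays, for the 15 stem cell genes with 2 or more of them. Filled points mark the probe set of highest mean signal, open points the others, and dashed lines the 2-fold bounds. The 3 probe sets of Meis1 span -1.50 to 0.20, whereas the 5 of Ndn all lie below 0 and the 3 of Hmga2 all above.

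Of the 15 genes with 2 or more measured probe sets, 9 had all of them on one side of equality and 6 did not. The 9 were Hlf, Erg, Etv6, Bmi1, Hmga2, Ndn, Nupr1, Neo1 and Pdzk1ip1. The 6 with mixed directions were Meis1, Angpt1, Ptger4, Jam2, Ehd3 and Clu. The other 19 genes rested on 1 measured probe set each, Tek and Plscr2 among them.

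Receptors, ligands and other surface proteins had a median of -0.27, with 3 of 9 above 0. The 3 were Tek, Angpt1 and Ptger4. Tek (Tie2), the receptor tyrosine kinase that anchors stem cells in the niche, gave 20.1 in wild type and 39.99 in TIF1γ Δ/Δ cells, which is 1.02 on the log2 scale or 2.02-fold. That difference lay at percentile 97.5 of all measured genes. The wild type signal stood just above the floor, and the gene was under 2-fold with no centring (log2 0.99), with 1 common floor (0.99) and with log2 of the value plus 16 (0.65), and became a bound of 0.084 with the floor at the 65th percentile. Angpt1, its ligand, gave 971 and 1423 (log2 0.58), but the second probe set, at 20.3 and 16.5, differed by -0.28. Tie1, the orphan co-receptor of Tek, gave 25.1 and 22.03 (log2 -0.16), a value that turned to 0.034 after quantile scaling and 0.029 after loess.

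The remaining surface genes were mostly lower. Robo4, a Robo family receptor of stem cells and endothelium, gave 34.9 and 25.9 (log2 -0.41). Neo1 (neogenin), a receptor for netrin and repulsive guidance molecules, gave 60.8 and 33.6 (log2 -0.83), with a second probe set at -0.24. Both of its measured probe sets are of the kind shared between transcripts, and its 3 others lay under the floor on both arrays. Jam2, a junctional adhesion molecule, gave 27.8 and 17.0 (log2 -0.68), and a second probe set near the floor gave 15.6 and 17.0 (log2 0.15). Ptger4, the prostaglandin E receptor EP4, stood on the other side at 430 and 625 (log2 0.57), with a second probe set at 17.6 and 15.4 (log2 -0.17). The small interferon-inducible membrane proteins Ifitm1 and Ifitm3 are encoded next to each other, with no protein-coding gene between them. Ifitm1 gave 3066 and 1958 (log2 -0.62), and Ifitm3 gave 1791 and 1460 (log2 -0.27).

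**Figure D3:**
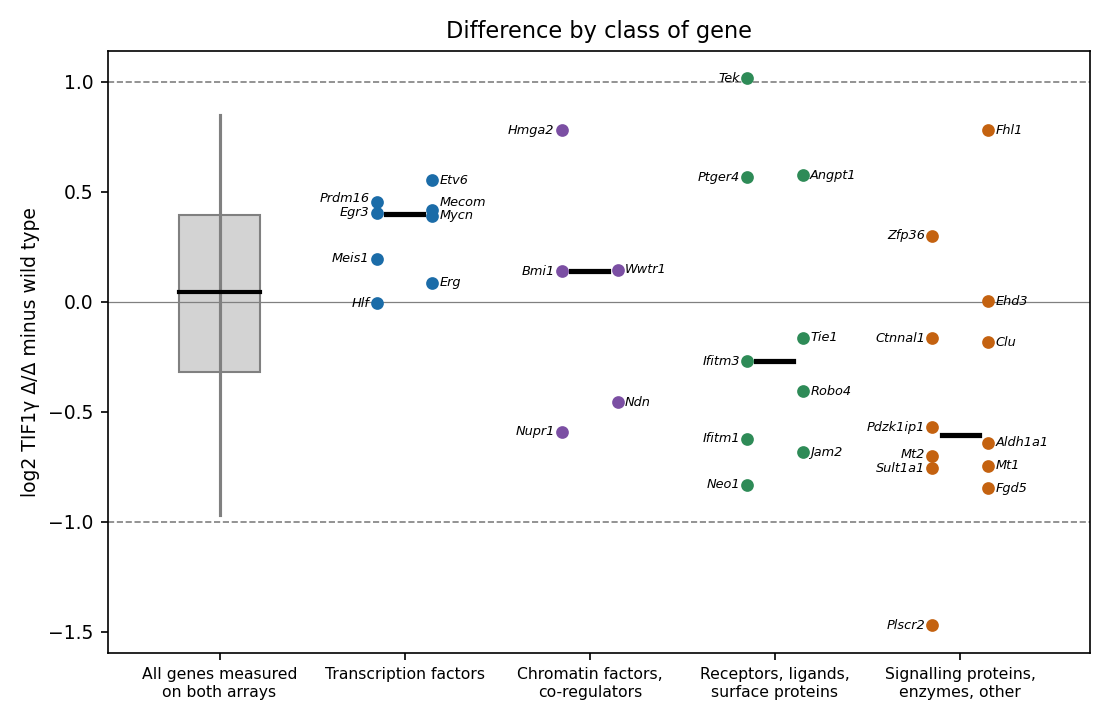
Difference (log2 TIF1γ Δ/Δ minus wild type) of the 34 stem cell genes by class, each point 1 gene from 1 array per genotype and each short bar the class median. The grey box shows the quartiles of the 10365 genes measured on both arrays (-0.32 and 0.40), its line their median of 0.044 and its whiskers the 5th and 95th percentiles (-0.97 and 0.85). Transcription factors centre on 0.40, surface genes on -0.27, and signalling proteins, enzymes and other genes on -0.61.

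Signalling proteins, enzymes and other stem-enriched genes were lower as a class, with a median of -0.61 and 9 of 12 below 0. The scramblase Plscr2 and the membrane-associated Pdzk1ip1 were counted here and not with the surface proteins. The medians of both classes depend in part on that choice. Plscr2 gave 85.6 in wild type and 30.4 in TIF1γ Δ/Δ cells (log2 -1.47, 2.77-fold), at percentile 1.83 of all measured genes. It rested on 1 probe set, so averaging probe sets or leaving out shared ones could not change its value. Its difference lay between -1.50 and -1.11 in the 11 alternative ways of computing it, which are not a replicate check. Further genes of this class serve as stem cell markers. Fgd5, a guanine nucleotide exchange factor whose locus is used for stem cell reporter mice, gave 44.2 and 24.1 (log2 -0.85). Pdzk1ip1 (MAP17), a small membrane-associated protein, gave 456 and 302 (log2 -0.57), and its second probe set differed by -0.59. Ctnnal1 (α-catulin), likewise a reporter locus for stem cells, gave 45.8 and 40.2 (log2 -0.17).

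Among the enzymes, Aldh1a1, which oxidises retinaldehyde, gave 1239 and 781 (log2 -0.64). Sult1a1, a phenol sulfotransferase, gave 65.1 and 37.9 (log2 -0.76). The extracellular chaperone clusterin (Clu) gave 72.2 and 62.5 (log2 -0.18), and its 4 measured probe sets ran from -0.18 to 0.21. Ehd3, which acts in endosome recycling, was nearly equal at 40.2 and 39.6 (log2 0.0029, and -0.021 with no centring). A pair of genes stood higher on the TIF1γ Δ/Δ array. Fhl1, a LIM-domain protein, gave 146 and 246 (log2 0.78), and the mRNA-destabilising protein gene Zfp36 (tristetraprolin) gave 1106 and 1341 (log2 0.30).

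The metallothioneins Mt1 and Mt2, which bind zinc and other metals, are neighbouring genes that differed by nearly the same amount. Mt1 gave 331 and 194 (log2 -0.75) from a probe set of the shared kind, and Mt2 gave 278 and 168 (log2 -0.70). The other Mt1 probe set lay under the floor on both arrays, at 2.16 and 0.724, so Mt1 had no value without shared probe sets. Whether the shared probe set also reads other transcripts was not tested, so the 2 readings may not be separate. Metallothionein genes are classically switched on by the metal-sensing factor MTF1 through metal response elements. The upstream sequences of Mt1 and Mt2 are shown because both lie in 1 locus and their readings differed alike. They are the 250 bases before the RefSeq start, 5′ to 3′ on the gene's strand in build GRCm38.p6, with the element core TGCACNC or TGCGCNC, searched on both strands, in capitals. The windows are chr8:94178839-94179088 (plus strand) for Mt1 and chr8:94172368-94172617 (plus strand) for Mt2.
Mt1: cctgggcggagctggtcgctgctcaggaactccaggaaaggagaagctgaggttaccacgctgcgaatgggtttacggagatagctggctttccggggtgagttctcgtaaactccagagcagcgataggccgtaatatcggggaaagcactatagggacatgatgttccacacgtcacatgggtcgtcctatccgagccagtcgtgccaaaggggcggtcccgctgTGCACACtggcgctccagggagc
Mt2: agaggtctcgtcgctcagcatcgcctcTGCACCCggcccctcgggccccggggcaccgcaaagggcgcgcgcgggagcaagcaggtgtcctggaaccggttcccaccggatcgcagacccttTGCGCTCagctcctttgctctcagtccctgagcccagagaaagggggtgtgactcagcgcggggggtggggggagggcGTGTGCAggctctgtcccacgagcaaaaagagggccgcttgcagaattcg
The core was found once in the Mt1 window, 23 bases before the start, and 3 times in the Mt2 window, 2 on the gene's strand and 1 on the opposite strand. Sequence outside these windows, including that past the RefSeq start, was not searched. The counts therefore do not give the number of elements at either gene and do not rank the 2 genes. It is a short and common pattern, present in 21.4% of all 32851 promoter windows of this length. Of the 34 stem cell genes, 29 were in the RefSeq promoter table, and 7 of these held the core: Fgd5, Hlf, Meis1, Mt1, Mt2, Ptger4 and Tek. Angpt1, Clu, Egr3, Jam2 and Plscr2 were not matched. An interferon-stimulated response element, spelled GAAANNGAAA, was found in a Mecom window only, and it occurs in 2.98% of all windows. The CArG box, bound by serum response factor, was found in windows of Fhl1 and Zfp36 and in 1.47% of all windows. No stem cell gene held more than 1 of the 3 patterns, and a match is only a run of letters.

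The transcription factors and the other 26 stem cell genes differed in their medians, 0.40 against -0.34, a gap of 0.74. Of the 26, 9 (34.6%) were above 0 and 10 (38.5%) at least 1.5-fold lower, where the shares of all measured genes were 53.1% and 13.2%. The gap was 0.52 after quantile scaling and 0.54 after loess. It was 0.14 when all probe sets of a gene were averaged, including those under the floor, and the median of the transcription factors was then -0.13. Averaging only the measured probe sets left the gap at 0.67.

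Signal strength differed between the classes, so the values were also set against genes of like signal. Among genes with a geometric mean intensity under 50, the median of all 2416 measured genes was -0.17, and that of the 12 stem cell genes in this range was -0.16. In this range 2.32% of all genes were higher by 2-fold or more and 9.27% lower; Tek was the 1 stem cell gene that reached 2-fold here. From 50 to 200 the median of all genes was 0.098 and that of the 6 stem cell genes -0.32, with Plscr2 lower where 3.28% of all genes were higher and 4.49% lower. At 200 or more, where 2.22% of all genes were higher and 2.15% lower, the 16 stem cell genes had a median of 0.11 and all genes 0.094. Within this bright range the 6 transcription factors (Hlf, Mecom, Meis1, Erg, Etv6 and Mycn) had a median of 0.29. The 5 genes of the signalling and enzyme class (Pdzk1ip1, Aldh1a1, Mt1, Mt2 and Zfp36) had a median of -0.64, and the 4 surface genes (Angpt1, Ptger4, Ifitm1 and Ifitm3) one of 0.15.

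**Figure D4:**
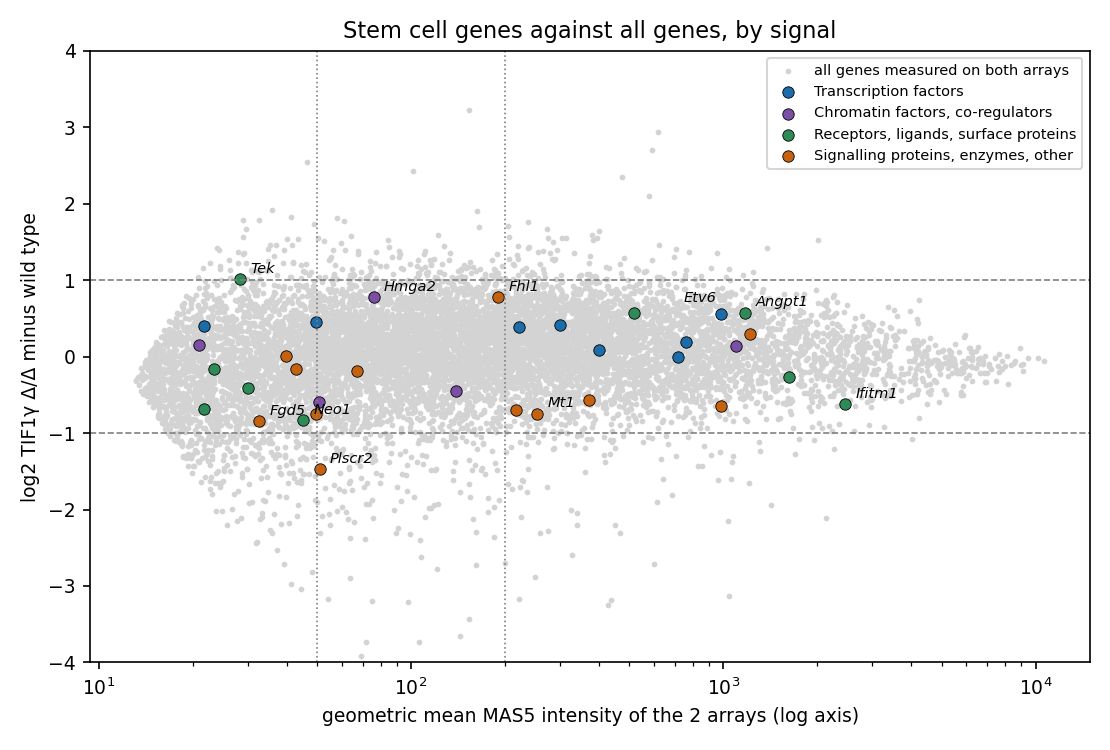
Difference (log2 TIF1γ Δ/Δ minus wild type) against geometric mean MAS5 intensity (log axis) for genes measured on both arrays (grey) and the 34 stem cell genes (coloured by class), 1 array per genotype. Dashed lines mark 2-fold, dotted lines intensities of 50 and 200, and 10 genes lie beyond the vertical axis limits of 4. Most stem cell genes lie inside the grey cloud, with only Tek (1.02) above the upper dashed line and only Plscr2 (-1.47) below the lower one.

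Other stem cell genes outside the set were listed for comparison. Of 22 other stem cell transcription factors, 1 was at least 2-fold higher and 1 lower, beside 2.6% and 6.16% of all 11439 genes with a value. Their median was 0.025, with 12 of 22 above 0. Gata2, a zinc finger factor of stem cells, gave 182 and 472 (log2 1.40, 2 of 2 probe sets), and Tcf15, a bHLH factor of quiescent stem cells, gave 72.0 and 31.6 (log2 -1.16). Hoxa9, a partner of Meis1, gave 1592 and 2289 (log2 0.55, 2 of 2 probe sets). None of 22 other stem-enriched genes was 2-fold apart, at a median of -0.15, with 9 above 0. They ran from Socs2, a cytokine signalling suppressor (84.7 and 47.3, log2 -0.82), to the progenitor antigen Cd34 (log2 0.76). The tetraspanin Cd81 gave 1069 and 1112 (log2 0.080), and Abcg2, the dye-efflux pump of the stem cell side population, gave 848 and 718 (log2 -0.22). Procr, the protein C receptor used to isolate stem cells, gave 486 and 316 (log2 -0.60). Kit, Cd34, Slamf1 and Procr also stood in the surface marker list above, so these are not separate readings. Vwf was also listed with megakaryocytes and Esam with endothelium.

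Among 33 paralogs and partners of the ETS, Polycomb, Meis, Myc, PAR bZIP and Prdm families, 23 had a value, and their median was 0.12. Of all 11439 genes with a value, 2.6% were at least 2-fold higher and 6.16% lower. Etv5 (48.5 and 124, log2 1.37) and Max, the dimerisation partner of Myc proteins (32.9 and 69.5, log2 1.101), were at least 2-fold higher. Pcgf1, a Polycomb paralog of Bmi1, was lower (48.6 and 21.3, log2 -1.17). Of 8 genes with a value in the angiopoietin, Tie and Robo pathway, only Slit1, a Robo ligand, was 2-fold apart (33.4 and 12.2, log2 -1.43). Angpt2 lay under the floor on both arrays. Ptpn11, the phosphatase SHP2 that acts downstream of many receptor kinases, gave 404 and 724 (log2 0.86). Endothelial markers, which share Tek, Tie1 and Robo4's usual setting, were mostly dim. Of 14 markers, 7 reached the floor in wild type and 8 in TIF1γ Δ/Δ cells, and Cdh5 (6.26 and 5.77), Pecam1, Kdr, Flt1 and Flt4 were under it on both. Emcn, a sialomucin of venous endothelium, was under the floor in wild type and at least 2.03-fold higher (10.8 and 28.8). The summed signal of the 14, values under the floor included, was 838 and 799, of which Egfl7 alone gave 438 and 418. Their median difference was 0.13 over 8 genes, and the part of these markers in the Tek, Tie1 and Robo4 values was not tested.

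Zinc-handling genes were listed beside Mt1 and Mt2. Of 14 such genes with a value, 9 were above 0, at a median of 0.32, and 1 was at least 2-fold higher. Of all 11439 genes with a value, 5865 were above 0 and 2.6% at least 2-fold higher. Slc39a10, a zinc importer, was at least 2-fold higher (442 and 894, log2 1.04). Mtf1 gave 78.9 and 59.8 (log2 -0.37, 2 of 3 probe sets), and the zinc transporter Slc30a1 gave 45.6 and 73.2 (log2 0.71, 1 of 2). Any part of Mtf1 in the Mt1 and Mt2 values was not tested. Slc39a1, another importer, gave 451 and 222 (log2 -0.997), just short of 2-fold. Mt3 and Mt4 were under the floor on both arrays. In the interferon-responsive list, which frames Ifitm1 and Ifitm3, 13 of 15 genes with a value were below 0, at a median of -0.60, and 3 were at least 2-fold lower. Over all 11439 genes with a value, 5573 were below 0 and 6.16% at least that much lower. The 3 lower genes of the list were Ifitm6, a myeloid member of the family (742 and 6.99, at least 62.7-fold lower), Ifit3 (33.7 and 15.3, log2 -1.11) and Rsad2 (503 and 242, log2 -1.03, 3 of 3 probe sets). Ifitm2 gave 1023 and 808 (log2 -0.32). The neutrophil and macrophage markers were lower with this list, at a median of -5.41, and their part in it was not tested.

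Relatives of Egr3 and Zfp36 went both ways. Egr1 gave 2379 and 1707 (log2 -0.46) and Zfp36l1 gave 689 and 478 (log2 -0.50, 2 of 2 probe sets). In contrast, Srf, which drives immediate early genes, gave 92.9 and 162 (log2 0.82, 2 of 2), and Zfp36l2 gave 2884 and 4316 (log2 0.61, 1 of 2). Nab1, a co-repressor of Egr proteins, gave 696 and 819 (log2 0.26, 2 of 2). None of the 10 with a value was 2-fold apart, where 2.6% of all 11439 genes with a value were higher and 6.16% lower. In the prostaglandin E list around Ptger4, 4 genes had a value. Ptger3 gave 587 and 749 (log2 0.38), Ptger2 gave 78.4 and 59.7 (log2 -0.37), and the cyclooxygenase Ptgs2 was 2-fold lower (72.6 and 32.8, log2 -1.12).

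**Figure D5:**
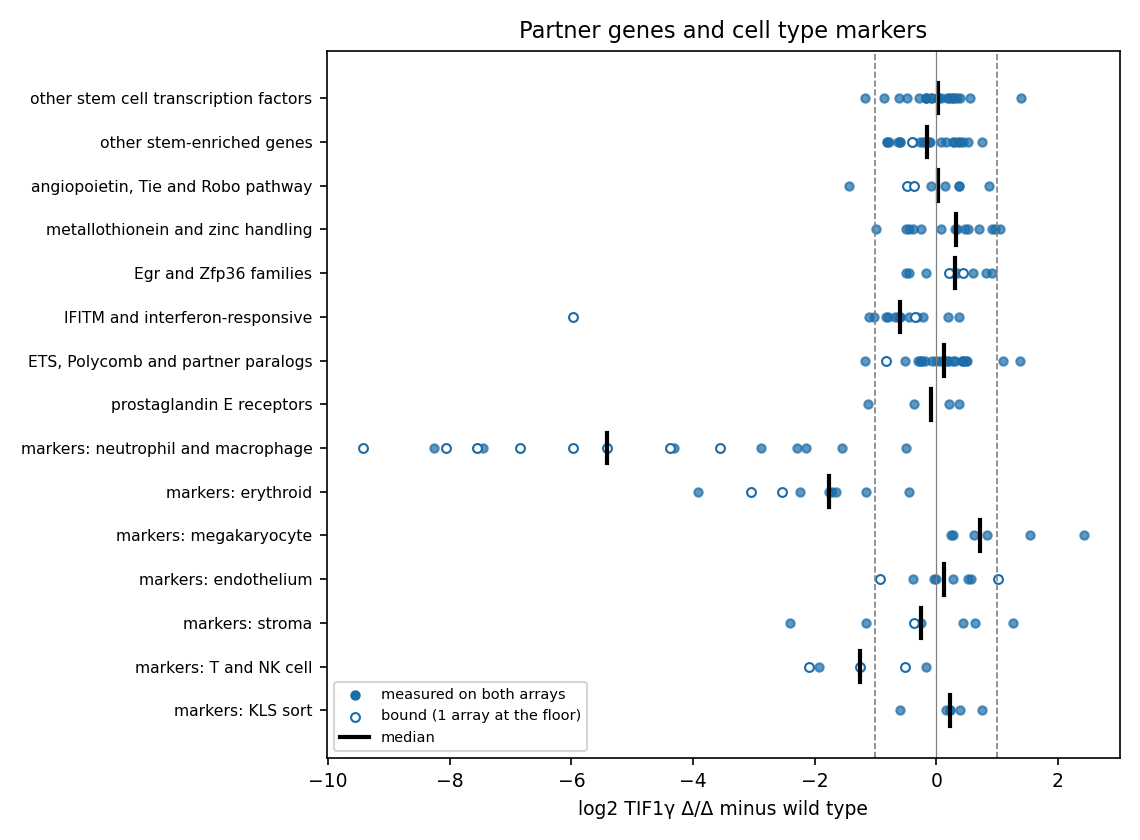
Difference (log2 TIF1γ Δ/Δ minus wild type) of genes in partner lists and marker lists with at least 4 values, from 1 array per genotype. Filled points were measured on both arrays, open points are bounds set by the floor of 1 array, black bars are medians and dashed lines mark 2-fold. The lists of stem cell genes centre near 0 (0.025 and -0.15), while the neutrophil and macrophage markers centre on -5.41, itself a bound.

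Markers of megakaryocytes, a lineage that shares several transcripts with stem cells, were above 0 in 6 of 6 measured genes, at a median of 0.72. The share of all measured genes above 0 was 53.1%. Ppbp (44.3 and 234, log2 2.42) and Tubb1 (25.8 and 73.9, log2 1.54) were at least 2-fold higher. Among all 11439 genes with a value, 2.6% were at least 2-fold higher and 6.16% lower. Pf4 gave 1134 and 1713 (log2 0.62) and Itga2b gave 308 and 538 (log2 0.83). Stromal markers, with 7 values, had a median of -0.24, with Pdgfrb higher (118 and 279, log2 1.27) and Lpl (247 and 46.0, log2 -2.40) and Cxcl12 (73.8 and 32.4, log2 -1.16) lower. Of 5 T and NK cell markers with a value, 3 were at least 2-fold lower, at a median of -1.25. Their sums over 6 were 1487 and 1148. Of 2 B cell markers with a value, 1 was lower by that much, at a median of -1.95. The B cell sums over 5 were 347 and 151. Both medians rest at least in part on bounds, since only 2 of the 5 and 1 of the 2 were measured on both arrays. The part of these markers in the stem cell gene values was not tested.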

How the data were processed

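Total RNA of sorted KLS cells was measured on 2 Affymetrix arrays, 1 per genotype, grouped by the genotype label. The deposited values are linear intensities that, per the submitters' processing notes, the authors made with MAS5, in a version not given in the sources used here. The mean of each column, after trimming 2% at either end of 45101 probe sets, was 100, so scaling had been done array by array. Detection calls were not used here, and the number of arrays limits precision.

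After 64 control probe sets were left out, 34945 had 1 gene in the platform annotation, 932 several and 9160 none; those with several named no gene. Symbols were updated by Entrez identifier to RefSeq GRCm38.p6, which held 34741. Floors were each array's median. A gene under it on 1 array received the floor and is printed as a bound; genes under it on both, or whose bound was under 1, have no fold. Calls follow a rule of size (2-fold). Every stem cell gene is named, with Trim33; from other lists, up to 6 genes past 2-fold, or otherwise up to 3 of the highest signal. Lists of mature myeloid, erythroid and lymphoid markers are given by counts and sums, with medians for the myeloid and lymphoid lists. Any further gene was chosen after its values were seen. The members, classes and lists were chosen with earlier results of these data known. The alternatives were scaling, floor, probe set rule, a pseudocount of 16 and thresholds of 1.5-fold and 3-fold. The comparison was tested on simulated data. Python 3.11.15, numpy 2.4.6, pandas 2.3.3, statsmodels 0.14.6 and matplotlib 3.10.9 were used.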

Additional observations from a re-analysis of the deposited data

How the results depend on the processing

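Of 34 stem cell genes, 26 kept their sign under each of 11 alternative computations that gave a value, and 6 of 362 values moved by the probe set SD or more. The count of genes at least 2-fold higher, 1, was 0 with no centring, with 1 common floor, with the floor at the 65th percentile (where Tek became a bound of 0.084), with log2 of the value plus 16 and at 3-fold, 2 with the mean of all probe sets and 3 at 1.5-fold. The count lower, 1, was 2 with that mean, 10 at 1.5-fold and 0 at 3-fold. The median of the set, -0.084, was 0.0090 with no floor, -0.21 with the mean of all probe sets and 0.087 without shared probe sets. The transcription factor median of 0.40 was 0.25 after quantile scaling, 0.27 after loess, 0.29 with log2 of the value plus 16 and -0.13 with the mean of all probe sets; the gap to the other genes was then 0.52, 0.54, 0.56 and 0.14. Chromatin factors and co-regulators had a median of -0.22 under the 65th-percentile floor and of -0.29 under the mean of all probe sets. The surface class gave -0.12 and -0.16 under the same settings, and the signalling and enzyme class -0.71 after quantile scaling. The mean of all probe sets takes in probe sets under the floor, which moved Mycn to -0.26, Egr3 to -0.33 and Fhl1 to 1.504, and left 30 genes with a value. Meis1, with all 3 probe sets measured, was at -0.76 under this mean and under the mean of measured probe sets. For the other moves the cause was not tested. Genes called over the whole array numbered 297 higher and 705 lower, and 170 and 412 under the 65th-percentile floor, 2025 and 2784 with no floor (57.9% lower, against 70.4%), and 153 and 356 with log2 of the value plus 16. At 1.5-fold they numbered 1579 and 1791, and at 3-fold 26 and 266. No paired analysis was possible because each group held 1 array.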

Other observations

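Of the stem cell genes, 10 are also known for higher expression in stem cells of old mice: Clu, Aldh1a1, Nupr1, Sult1a1, Plscr2, Jam2, Ehd3, Neo1, Wwtr1 and Fhl1. This grouping was chosen after the values were seen, from the set only, and has no test. It does not stand for all genes that are higher in stem cells of old mice. In TIF1γ Δ/Δ cells 7 of the 10 were below 0, at a median of -0.62, and 6 were at least 1.5-fold lower (Plscr2, Neo1, Sult1a1, Jam2, Aldh1a1 and Nupr1). Of all genes measured on both arrays, 53.1% were above 0 and 13.2% at least 1.5-fold lower. Fhl1 was 1.5-fold higher, and Wwtr1 and Ehd3 differed by 0.15 and 0.0029. Plscr2, Sult1a1 and Aldh1a1 rested on 1 measured probe set each, and the pair of Jam2 disagreed in direction (-0.68 and 0.15). The other stem-enriched genes, outside the set, were not sorted by age in this way. Of these, 9 of 22 were above 0 and 13 below. Selp (log2 0.53, 3 of 3 probe sets) and Vwf (log2 0.27) were among the 9.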
